A study of Mus musculus with 8 samples.

Results

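The genes described here encode proteins that coat lipid droplets or help to build them. They are the perilipins other than Plin1 (Plin2, Plin3, Plin4 and Plin5), Cidec, the fat storage-inducing transmembrane genes Fitm1 and Fitm2, and the seipin gene Bscl2. They were chosen by symbol, with earlier results of these data known, and all 8 were found among the 18691 genes listed. Epididymal white adipose tissue of C57BL/6J mice aged 16 weeks was sequenced as polyadenylated RNA, in 4 libraries labelled wild type (WT, replicates 1, 2, 3 and 4) and 4 labelled Mrp4-/- (replicates 1, 2, 4 and 5). Mrp4 is an efflux transporter encoded by Abcc4, known for exporting cyclic AMP and prostaglandins. No treatment is named, and what was changed in the allele is not stated in the labels. Nothing in the labels ties the libraries to individual mice, so p-values here cover the spread among the libraries and no more.

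A white adipocyte keeps most of its triglyceride in a single large droplet. Triglyceride is made in the membrane of the endoplasmic reticulum, from which droplets bud: FIT proteins act in the budding step, and seipin sits at the junction between membrane and droplet and is known from inherited lipodystrophy when lost. Perilipins then bind the droplet surface and control access of lipases, and Cidec (also called FSP27) sits where droplets touch and moves lipid into the larger one.

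Abcc4 was checked first, because the labels rest on it. Its values were 3.59, 3.33, 3.81 and 3.33 FPKM (fragments per kilobase of transcript and per unit of sequencing depth) in WT replicates 1 to 4. It was 3.54, 3.68, 3.89 and 3.31 FPKM in replicates 1, 2, 4 and 5 labelled Mrp4-/-. The groups overlapped, and no loss of the transcript was seen (log2 fold change -0.05 ± 0.08 SE; edgeR quasi-likelihood test with Benjamini-Hochberg adjustment, adjusted p = 0.692). The files give Abcc4 as a single value per library and cannot tell intact from altered transcripts, so each direction below rests on the labels, and the groups are called WT and the libraries labelled Mrp4-/-. Adipocyte markers were abundant in every library, with Adipoq, the adiponectin gene, between 2279 and 2782 FPKM. Of 8 such markers, Plin1, Retn (resistin), Cfd (adipsin) and Cebpa, an adipocyte transcription factor, fell (log2 fold changes -0.35, -0.90, -1.57 and -0.35), none rose, and 4 did not pass. Their summed level was 24964 to 29319 FPKM in WT and 19340 to 22338 FPKM in the labelled libraries, without overlap. Cfd carried that separation, at 6279 to 11938 FPKM in WT and 2415 to 5590 FPKM in the labelled libraries. Fabp4, a fatty acid binding protein gene and the other large part of the sum, did not pass (log2 fold change 0.12). The part of the summed level in the falls described below was not tested. All 8 genes of a liver list were higher in the libraries labelled Mrp4-/-, with a summed level of 36 to 87 FPKM in WT against 608 to 1196 FPKM. In bulk tissue, fewer cells of a type and less RNA per cell cannot be told apart.

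Of the 7 droplet genes with enough counts to test, Bscl2 and Fitm2 fell, Plin3 rose, and Plin2, Plin4, Plin5 and Cidec did not pass. Fitm1 was nearly absent from WT and had too few counts for the test. The 3 calls are to be read beside all 14257 tested genes, of which 18.3% passed at an adjusted p under 0.05 (10.2% higher and 8.05% lower). With library size alone as scaling, 74.1% of all calls were higher in place of 55.9%, while Bscl2, Fitm2 and Plin3 kept their directions and calls. The median log2 fold change of the 7 tested members was -0.30, and that of all tested genes was 0.00 to 2 decimals (-0.00297). No test was made of the group, and nothing particular to it is read from these counts.

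**Figure D1:**
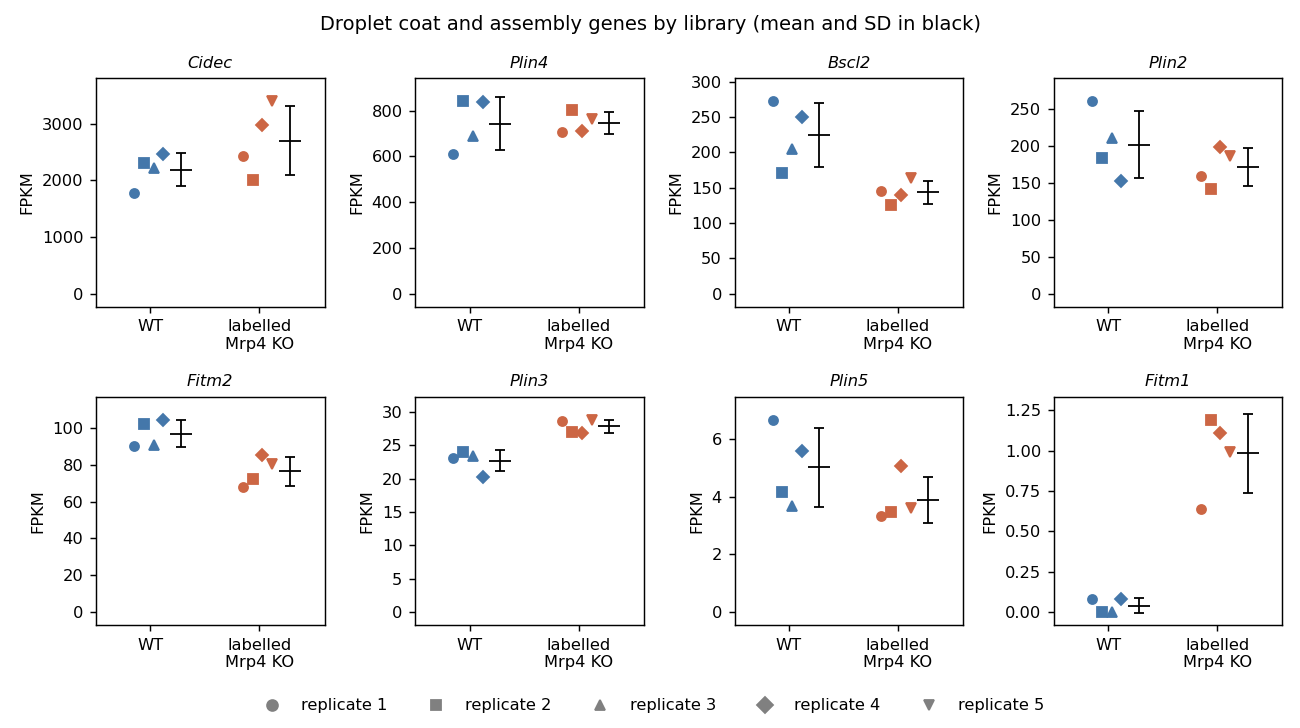
Level in FPKM (vertical axes, each with its own linear scale) of the 8 genes in WT and in libraries labelled Mrp4-/- (labelled Mrp4 KO). Symbols mark replicate numbers, which the main test did not use to pair the groups, and black bars give mean and SD (n = 4). Bscl2 and Fitm2 lie lower and Plin3 and Fitm1 higher in the labelled libraries with no overlap, while the ranges of Cidec, Plin4, Plin2 and Plin5 overlap.

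The stretches of 250 bases before the transcription start are shown for the 3 members that passed, so that their proximal promoters can be compared. All 8 members were matched by gene number in the RefSeq promoter table of build GRCm38.p6, which is not the mm9 build named for these files. The windows are chr19:8837217-8837466, plus strand (Bscl2, the most upstream of 3 listed starts), chr2:163472630-163472879, minus strand (Fitm2) and chr17:56290512-56290761, minus strand (Plin3). Each runs 5′ to 3′ toward the gene, and capitals mark CCAAT and GGGCGG on either strand.
Bscl2: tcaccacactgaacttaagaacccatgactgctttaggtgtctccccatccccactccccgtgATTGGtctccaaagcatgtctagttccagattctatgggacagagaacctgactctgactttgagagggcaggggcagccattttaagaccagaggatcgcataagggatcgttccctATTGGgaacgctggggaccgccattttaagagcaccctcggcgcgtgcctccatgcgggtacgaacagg
Fitm2: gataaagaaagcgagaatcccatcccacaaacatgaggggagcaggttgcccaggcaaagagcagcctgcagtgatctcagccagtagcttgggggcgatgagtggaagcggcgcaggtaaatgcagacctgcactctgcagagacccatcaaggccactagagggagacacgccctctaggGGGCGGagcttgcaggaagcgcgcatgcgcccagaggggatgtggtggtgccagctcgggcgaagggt
Plin3: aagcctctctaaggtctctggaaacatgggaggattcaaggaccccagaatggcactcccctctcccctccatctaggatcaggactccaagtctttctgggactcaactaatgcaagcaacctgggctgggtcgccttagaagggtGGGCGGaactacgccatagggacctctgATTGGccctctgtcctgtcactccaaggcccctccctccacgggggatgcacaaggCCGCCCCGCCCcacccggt

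The Bscl2 window held CCAAT at 2 places (first bases 187 and 69 before the start) and no GGGCGG. Windows of the other listed Bscl2 starts, not shown, held neither. The Fitm2 window held GGGCGG once and no CCAAT. The Plin3 window held CCAAT once and GGGCGG at 3 places, of which 2 share a base. Over the 32851 windows of this length in the table, 33.8% held CCAAT and 32.7% held GGGCGG. Also searched on both strands were the direct repeat bound by PPARγ (AGGTCA at 2 places with any 1 base between them, in 0.0335% of all windows), TGACGTCA, the cyclic AMP response element (1.55%), and CACGTG, the E-box (6.02%). No start of the 8 members held any of these 3 in its window, which says only that these letters are not there.

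In order of level, the members ran from Cidec to Fitm1, and the values are per length and so can be set side by side. In WT, Cidec was at 2186 ± 295 FPKM (mean ± SD, n = 4), Plin4 at 743 ± 115, Bscl2 at 224 ± 45.3, Plin2 at 202 ± 45.8, Fitm2 at 96.9 ± 7.43, Plin3 at 22.7 ± 1.63 and Plin5 at 5.02 ± 1.36 FPKM. Of these neighbours only Bscl2 and Plin2 had overlapping ranges. In the libraries labelled Mrp4-/- Plin2 stood above Bscl2, again with overlap, and the rest of the order was as in WT. Plin1, which is no member and encodes the main adipocyte droplet coat protein, overlapped with Plin4 in WT and lay below it in the libraries labelled Mrp4-/-.

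Of the 3 assembly genes of the set, which act at the endoplasmic reticulum, Bscl2 and Fitm2 fell and Fitm1 was not tested. Bscl2 (gene 14705), the seipin gene, was at 272, 171, 205 and 250.1 FPKM in WT replicates 1 to 4. It was at 145, 125, 139 and 164 FPKM in replicates 1, 2, 4 and 5 labelled Mrp4-/-. The lowest WT library stood above the highest labelled one, and WT replicates 1 and 4 were farthest apart from the labelled group. Bscl2 fell by 0.71 ± 0.15 (SE) on the log2 scale, to a fold of 0.61 (95% interval 0.48 to 0.775; edgeR adjusted p = 0.0163). The fall passed with any 1 library left out, at log2 fold changes from -0.84 to -0.61. Gng3, a G protein subunit gene, overlaps Bscl2 in the RefSeq annotation, and no use of strand is stated for the counting. Gng3 averaged 2.27 FPKM in WT and 1.68 FPKM in the labelled libraries, far under Bscl2, and did not pass.

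Fitm2 (gene 228859) encodes FIT2, the widely expressed FIT protein, an enzyme of the endoplasmic reticulum membrane. Its level was 90.1, 102, 91 and 104 FPKM in WT replicates 1 to 4 and 67.7, 72.4, 85.15 and 80.6 FPKM in replicates 1, 2, 4 and 5 labelled Mrp4-/-. The groups did not overlap, with replicate 4 labelled Mrp4-/- nearest to WT. Fitm2 fell by 0.40 ± 0.09 (SE) on the log2 scale, to a fold of 0.756 (95% interval 0.653 to 0.874; edgeR adjusted p = 0.0207). The call was lost without WT replicate 4 (-0.36, adjusted p = 0.0564) and without replicate 2 labelled Mrp4-/- (-0.37, adjusted p = 0.052).

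Fitm1 (gene 68680) encodes FIT1, the FIT protein best known from skeletal and heart muscle. Its expected counts were 1, 0, 0 and 1 in WT replicates 1 to 4, and a count of 0 allows up to 3. They were 8, 15, 14 and 12 in replicates 1, 2, 4 and 5 labelled Mrp4-/-, or 0.64, 1.19, 1.11 and 0.99 FPKM. Every labelled library thus had more Fitm1 counts than every WT library, at a level below that of any other member. Summed over the group, 49 counts stood against 2, a ratio of 24.5 after scaling to total counts (95% exact interval 6.43 to 208, which covers counting error only). Fitm1 was removed by the filter on low counts, and with no filter it passed (edgeR adjusted p = 0.00282).

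Markers of other tissues were set beside Fitm1, and their part in its difference was not tested. Of 11 skeletal muscle genes, only Acta1 had enough counts to test, and the summed level of the list ran from 11.5 to 74 FPKM in WT and from 35.5 to 112 FPKM in the labelled libraries. Acta1, skeletal actin, made up most of that sum and did not pass. Ckm, muscle creatine kinase, was at or below 0.1 FPKM in all libraries but WT replicate 1 (1.16 FPKM), where Fitm1 had 1 count. Myh4, a fast myosin heavy chain gene, was at or below 0.01 FPKM in each library. Every other gene of this list had a higher mean in the labelled libraries, with overlapping ranges. Among them were Tnni2 (mean 0.14 FPKM in WT against 0.4475), Tnnc2 (0.505 against 0.9025) and Mb (0.1675 against 0.3325). The 5 heart muscle genes summed to 4.28 to 9.79 FPKM in WT and 7.47 to 15 FPKM in the labelled libraries; Myl4, an atrial myosin light chain gene, made up most of this in all libraries but WT replicate 1, where Tnnt2, cardiac troponin T, was higher (4.8 against 3.66 FPKM), and rose (1.17 on the log2 scale; adjusted p = 0.0425), with overlapping ranges. Liver genes did differ without overlap: Alb, serum albumin, was at 40.05, 23.1, 23.5 and 17.4 FPKM in WT replicates 1 to 4 and at 309.98, 553, 509 and 496 FPKM in the labelled libraries. Replicate 1 labelled Mrp4-/- was the lowest of its group for both Fitm1 and Alb. Fitm1 lies on chromosome 14, as does Abcc4; the genes on either side of it, Dcaf11 and Psme1, did not pass (log2 fold changes 0.17 and -0.07).

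**Figure D2:**
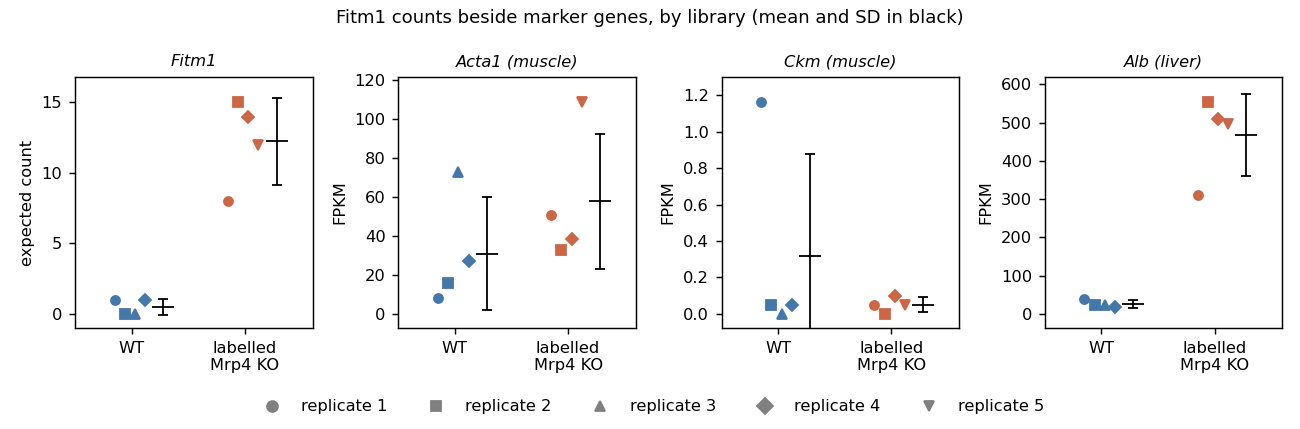
Expected counts of Fitm1 and FPKM of the muscle genes Acta1 and Ckm and the liver gene Alb (linear vertical axes) in WT and libraries labelled Mrp4-/- (labelled Mrp4 KO); black bars give mean and SD (n = 4). Fitm1 and Alb separate the groups, Acta1 overlaps, and Ckm is near 0 in all libraries but WT replicate 1. Of the skeletal muscle genes not shown, all but Myh4 had a higher mean in the labelled libraries, with overlapping ranges.

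Among the coat protein genes of the set, Plin3 passed and Plin2, Plin4, Plin5 and Cidec did not. Plin3 (gene 66905), also called TIP47, is a widely expressed perilipin that moves from the cytosol onto small new droplets. It was at 23.1, 23.95, 23.5 and 20.3 FPKM in WT replicates 1 to 4 and at 28.7, 27, 26.9 and 28.8 FPKM in replicates 1, 2, 4 and 5 labelled Mrp4-/-. The groups did not overlap, and WT replicate 4 was the lowest library. Plin3 rose by 0.23 ± 0.07 (SE) on the log2 scale, a fold of 1.17 (95% interval 1.06 to 1.3; edgeR adjusted p = 0.0375). The call is near the threshold: it held without WT replicate 2 and was lost without any 1 of the other 7 libraries (adjusted p from 0.0557 to 0.0914), and with no filter on counts (adjusted p = 0.0557). Of 7 tested members 3 had groups that did not overlap in FPKM, namely Bscl2, Fitm2 and Plin3, where 23.5% of all tested genes did so.

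Plin2 (gene 11520), known as adipophilin, coats droplets in most cell types. It was at 261, 184, 212 and 153 FPKM in WT and at 159.7, 141, 199 and 187 FPKM in the labelled libraries. WT replicate 1 was highest and the groups overlapped (log2 fold change -0.30, 95% interval -0.68 to 0.08; edgeR adjusted p = 0.235). Plin2 is also abundant in macrophages and liver. Of 8 macrophage markers 3 rose without overlap, namely Itgax, Emr1 and Cd68 (log2 fold changes 1.53, 0.59 and 0.47), and the other 5 did not pass. The markers summed to 657 to 760.5 FPKM in WT and 754 to 1228 FPKM in the labelled libraries. Lyz2, a lysozyme gene, made up most of each sum and did not pass, with overlapping ranges. The part of macrophages and liver cells in the Plin2 level was not tested.

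Plin4 (gene 57435), once named S3-12 and most abundant in white adipocytes, was at 608, 839.6, 687 and 837 FPKM in WT. It was at 706, 803, 710.3 and 765 FPKM in the labelled libraries, all within the WT range. Its log2 fold change was -0.06 (95% interval -0.36 to 0.24; edgeR adjusted p = 0.779), and its sign turned with library size alone as scaling (0.01) and without WT replicate 4 (0.01). Plin5 (gene 66968), the perilipin of tissues that burn fat, which ties droplets to mitochondria, was low. It was at 6.67, 4.16, 3.68 and 5.58 FPKM in WT and at 3.35, 3.48, 5.08 and 3.63 FPKM in the labelled libraries, from 93 to 185 counts. The groups overlapped, and the log2 fold change was -0.43 (95% interval -0.92 to 0.06; edgeR adjusted p = 0.188). Of 8 brown or beige adipocyte markers, Elovl3, a fatty acid elongase, rose (4.06 on the log2 scale, at or below 0.38 FPKM in WT), Ppargc1a, a coactivator of mitochondrial genes, fell (-1.02), 5 did not pass and Ucp1 had too few counts to test. Elovl3 had 0 to 10 counts in the WT libraries and 36 to 152 in the labelled ones, so it entered the test through the group where it is high. Elovl3 was highest in replicates 2 and 4 labelled Mrp4-/- (5.66 and 4.32 FPKM), as was the liver gene Alb. The part of liver transcripts in the Elovl3 rise was not tested. The part of brown or beige cells in the Plin5 level was not tested. Ucp1, the uncoupling protein of brown fat, was at or below 0.09 FPKM in all libraries but WT replicate 1 (2.25 FPKM), the library highest for Plin5.

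Cidec (gene 14311) was the most abundant member in every library. It was at 1772, 2296, 2213 and 2463 FPKM in WT and at 2432, 2002, 2979.7 and 3390.2 FPKM in the labelled libraries. Replicates 4 and 5 labelled Mrp4-/- stood above all WT libraries, while replicates 1 and 2 lay within the WT range (log2 fold change 0.25, 95% interval -0.16 to 0.65; edgeR adjusted p = 0.367). A rise of up to 1.57-fold or a fall to 0.893-fold lies within that interval, so no change in Cidec was detectable.

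As a description of the perilipin transcripts as a whole, the summed FPKM of the 5 perilipin genes was split by gene within each library. Protein was not measured, and each share also depends on the levels of the other genes in the sum. Plin1 took 43.6 ± 2.17% in WT and 39.5 ± 1.49% in the labelled libraries, and Plin4 took 42.9 ± 5.22% and 47.5 ± 2.04% (SD, n = 4). Plin2 took 11.8 ± 3% and 11 ± 1.74%. Plin3 took 1.32 ± 0.117% and 1.78 ± 0.0712%, with no overlap, and Plin5 took 0.292 ± 0.0816% and 0.248 ± 0.0551%.

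**Figure D3:**
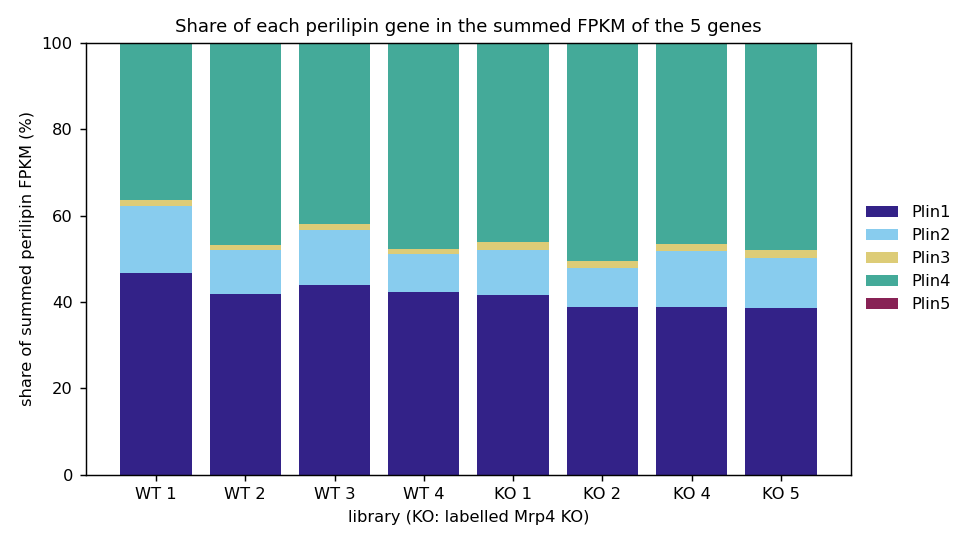
Stacked bars of the share (%) of each perilipin gene in the summed FPKM of the 5 genes, 1 bar per library. Plin1 and Plin4 together make up most of each bar; the band of Plin3 is wider in the 4 labelled libraries (1.7% to 1.86%) than in WT (1.15% to 1.42%), and that of Plin5 is too thin to see.

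Whether paralogues differed in their response was tested on their log2 ratio within each library, in which library scaling cancels. Of 7 pairs none passed after adjustment over the pairs (exact two-sided permutation test, 4 against 4 libraries, smallest p possible 0.0286). An unadjusted p under 0.05 was found for 2. With so few libraries a pair could pass only if most pairs reached the smallest p, so a failure to pass says little about any 1 pair. The log2 ratio of Plin2 to Plin3 was 3.12 ± 0.27 in WT and 2.61 ± 0.224 in the labelled libraries, without overlap (exact permutation p = 0.0286, adjusted p = 0.1). The ratio of Fitm1 to Fitm2 was -9.50 ± 0.498 and -6.17 ± 0.29, also without overlap (exact permutation p = 0.0286, adjusted p = 0.1). Fitm1 lay higher and Fitm2 lower in the labelled libraries without overlap, so this ratio had to separate and its p adds nothing. The size of the Fitm1 to Fitm2 difference depends on the value of 0.1 FPKM added to each gene, since Fitm1 is at or below that in WT. The difference was 3.33, but 1.26 with 1 FPKM added and 4.18 on expected counts with 0.5 added. The other 5 pairs, all of perilipins, had exact permutation p from 0.0857 to 0.686.

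The members were also set against Plin1 of the same library. Plin1 was at 752 ± 25.5 FPKM in WT and 619 ± 19 FPKM in the labelled libraries and fell by 0.35 ± 0.08 (log2; edgeR adjusted p = 0.0217), a call lost without WT replicate 4 or replicate 1, 2 or 4 labelled Mrp4-/- (-0.35 to -0.33 without these, adjusted p from 0.052 to 0.0628). Of the 8 ratios to Plin1 none passed after adjustment over the 8 (exact permutation test, lowest adjusted p = 0.114). An unadjusted p under 0.05 was found for 2. Here too a ratio could pass only if most of the 8 reached the smallest p possible. Plin3 relative to Plin1 was higher by 0.58 on the log2 scale, with every labelled library above every WT library (exact permutation p = 0.0286), as was Fitm1 (3.26, exact permutation p = 0.0286). In FPKM, Plin3 and Fitm1 each lay higher and Plin1 lower in the labelled libraries without overlap. Both ratios therefore had to separate the groups, and their p-values add nothing to the single genes. The Fitm1 value was 1.20 with 1 FPKM added and 4.12 on expected counts with 0.5 added. Fitm2 relative to Plin1 differed by only -0.06, from -2.96 ± 0.127 to -3.02 ± 0.191 (exact permutation p = 0.6). Bscl2 relative to Plin1 differed by -0.35, from -1.77 ± 0.281 to -2.12 ± 0.163, with overlap (exact permutation p = 0.0857). Cidec relative to Plin1 differed by 0.57 (exact permutation p = 0.0571).

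Other genes of the droplet, 44 in a list without the members, showed 4 rises and 9 falls, and 31 did not pass (13 of 44 against 18.3% of all tested genes). The list was chosen with earlier results of these data known, so nothing is read from its share of calls. The median log2 fold change of this list was -0.12. In coat and lipid breakdown, of 11 genes 2 rose and 4 fell (median -0.26). Pnpla3, a lipid hydrolase of the ATGL family, fell from 285 ± 67.1 to 159 ± 24.8 FPKM (log2 fold change -0.91; edgeR adjusted p = 0.0133). Abhd5, the activator of ATGL that perilipin 1 holds at the droplet, fell from 62.1 ± 8.69 to 43.3 ± 6.66 FPKM (-0.58) with overlapping ranges, a call lost without WT replicate 1 or 4 or replicate 1, 2 or 4 labelled Mrp4-/- (-0.56 to -0.52). Abhd6, a monoacylglycerol lipase, fell by 0.43 on the log2 scale, and its call was lost in 6 of the 8 fits without 1 library (-0.49 to -0.32) and in 4 other settings. Hilpda, an inhibitor of ATGL, rose from 6.97 ± 0.541 to 10.2 ± 1.53 FPKM (0.49), a call that, of the 8 fits without 1 library, held in those without WT replicate 2 or replicate 5 labelled Mrp4-/- and was lost in the other 6. Cideb, the paralogue of Cidec best known from liver, rose from 0.365 ± 0.0532 to 3.94 ± 1.49 FPKM (3.34; edgeR adjusted p = 0.000479). Cideb had 5 to 7 counts in each WT library and 40 to 94 in the labelled ones, so it entered the test through the group where it is high.

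In assembly and triglyceride supply, of 10 genes none rose and 3 fell (median -0.31). The other 7 did not pass, among them Tmem159, which encodes a seipin partner (0.02; adjusted p = 0.924) and was chosen after its value was seen. Agpat2, the acyltransferase that, like seipin, is known from inherited lipodystrophy, was at 867, 305, 331 and 499 FPKM in WT and at 189.6, 199.9, 225 and 262 FPKM in the labelled libraries. The groups did not overlap, and WT replicate 1 was far above the others. Agpat2 fell by 1.26 ± 0.31 (SE) on the log2 scale (edgeR adjusted p = 0.0275). Without WT replicate 1 the value was -0.85, and the call was lost without WT replicate 4 or any 1 library labelled Mrp4-/- (-1.36 to -1.19). Gpam, which adds the first fatty acid to glycerol phosphate, fell from 85.2 ± 10 to 58.6 ± 11.5 FPKM (-0.60) with overlapping ranges, a call lost without WT replicate 1 or replicate 2 or 5 labelled Mrp4-/- (-0.58 to -0.54).

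In droplet residents, tethers and traffic, of 23 genes 2 rose and 2 fell (median -0.01; 19 did not pass). Vps13c, a lipid transfer protein at contacts of the endoplasmic reticulum with droplets and endosomes, fell from 16.95 ± 3.17 to 9.76 ± 0.849 FPKM (-0.87; edgeR adjusted p = 0.00396). Nsdhl, a sterol synthesis enzyme that also sits on droplets, fell from 34.2 ± 12.6 to 16.6 ± 1.76 FPKM (-1.11), a call lost without WT replicate 4 (-1.04) or replicate 4 labelled Mrp4-/- (-1.07). Hsd17b13, a droplet protein best known from liver, rose from 0.242 ± 0.0435 to 4.49 ± 1.43 FPKM (4.06; edgeR adjusted p = 0.000201). Hsd17b13 had 4 or 5 counts in each WT library and 53 to 105 in the labelled ones, and so it too entered the test through the higher group. Mettl7b, a membrane protein found on droplets, rose from 6.79 ± 0.89 to 16.6 ± 4.48 FPKM (1.23). Replicates 2 and 4 labelled Mrp4-/- were the highest for Hsd17b13, Cideb, Mettl7b and Alb, and the part of liver transcripts in these rises was not tested.

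**Figure D4:**
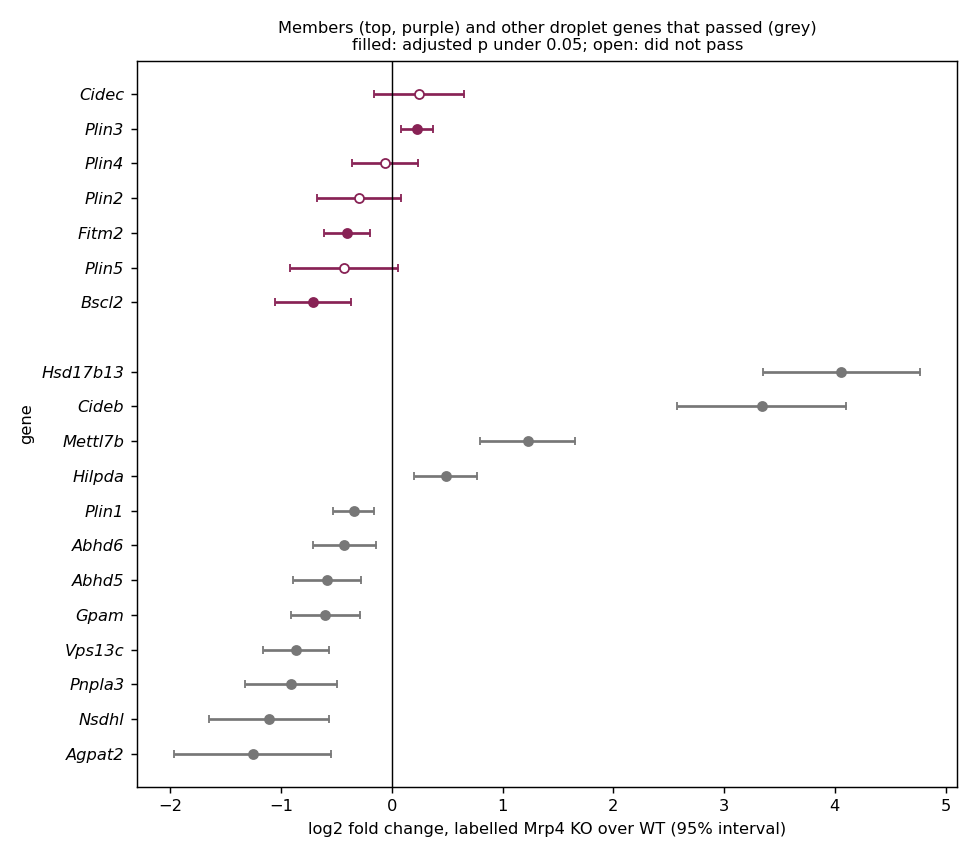
Log2 fold change (horizontal axis, libraries labelled Mrp4-/- over WT) with its 95% interval for the 7 tested members and for the 12 other droplet genes with the lowest p. Filled points passed at an adjusted p under 0.05 and open points did not; member intervals lie within -1.06 and 0.65, while Hsd17b13 and Cideb reach 4.06 and 3.34.

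Genes most like the passing members in pattern were sought among 6299 others with a mean of at least 10 FPKM, by the root mean square difference of centred log2 levels over the 8 libraries. The libraries include both groups, so a gene with a similar fold change comes out as alike. For Bscl2 they were Cs, citrate synthase (difference 0.061), Aco1, cytosolic aconitase (0.077), and Fmo1, a flavin monooxygenase (0.081), where Bscl2 itself varied by 0.413 about its mean. Cs fell from 271 to 163 FPKM (-0.80; edgeR adjusted p = 0.0149). For Fitm2, which varied by 0.238, they were Zfand6, Mical3 and Adipor2, an adiponectin receptor gene (0.0778 to 0.0799). For Plin3, which varied by 0.132, they were Bak1, Tmbim6 and Klhdc3 (0.0419 to 0.0471).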

How the data were processed

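Polyadenylated RNA was sequenced as paired reads of 100 bases on the BGISEQ-500 platform, per the labels' protocols. Per the submitters' processing notes, Bowtie2 and build mm9 were used; which program made the gene values is not given. Each library's file, as deposited, holds 3 measures per NCBI Gene number, per the file headers: the expected count (an estimate, whole for 92% to 92.6% of listed genes), the FPKM and the transcript length. A gene not listed in a library was taken as 0. Expected counts summed to between 14064681 and 14700114 per library, and reads carried no molecular identifiers.

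Expected counts were rounded, then fitted in R 4.3.3 by edgeR 4.0.16 (filterByExpr, TMM, glmQLFit with robust=TRUE, glmQLFTest, two-sided, genotype alone), with Benjamini-Hochberg adjustment over the 14257 genes kept; 4434 were removed. The SE is the log2 fold change over the square root of F. Ratios were tested with scipy 1.17.1 on log2(FPKM + 0.1). Alternatives were other scalings and filters, DESeq2 1.42.0, limma 3.58.1 (voom, or trend on log2 FPKM values), a replicate block, other thresholds and each library left out. Scripts were tested on simulated data. The members and lists were chosen with earlier results of these data known. Named were the members, Abcc4, Plin1, the 12 droplet-list genes with the lowest p among those that passed with at least 1 FPKM in a group, and 3 genes most like each passing member; markers and neighbouring genes are named as context, chosen after their values were seen. A mesothelium list (summed 140.1 to 218 FPKM in WT, 51 to 139.6 in the labelled libraries) and an epididymis list (at most 0.38 FPKM summed in any library) were also read.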

Additional observations from a re-analysis of the deposited data

Results flagged for a closer look

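In 3 of the 42 groups of 4 values looked at, 1 library lay far from the other 3, by a gap above Dixon's 95% critical share of the group's whole range. Chance gives this in about 1 of 20 groups. Plin5 was at 5.08 FPKM in replicate 4 labelled Mrp4-/-, above the other 3 of its group. Gpam was at 75.7 FPKM in the same library, the highest of its group. Abhd5 was at 53.2 FPKM in replicate 5 labelled Mrp4-/-, the highest of its group.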

How the results depend on the processing

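Over other scalings, filters, tools and units (DESeq2, limma-voom and limma on FPKM values included), 3 members passed in each; they were Bscl2, Fitm2 and Plin3, except with no count filter, where Fitm1 took the place of Plin3. Without 1 library 1 to 4 members passed, with 1 only without replicate 2 labelled Mrp4-/-. These counts include Fitm1 without any 1 WT library or without replicate 1 labelled Mrp4-/-, where its counts in the labelled libraries took it through the filter. Plin3 is among them only without WT replicate 2. Without 1 library, 6 to 16 of the other droplet genes and 1172 to 3683 of all tested genes passed. At an adjusted p under 0.01, 0 members, 4 droplet genes and 551 of all genes passed, and 4178 of all genes passed at 0.1. Plin4 turned sign with library size alone (0.0076), with limma on log2(FPKM + 1) or log2(FPKM + 0.1) (0.017 in both), and without WT replicate 4 (0.011; -0.14 to 0.011 over single libraries). Abcc4 turned sign with library size alone (0.018), with limma at the larger and smaller added value (0.028 and 0.035) and with the block (0.015). Ratio differences that turned sign without 1 library were those of Plin2 to Plin5 (-0.066 to 0.29), Plin2 to Plin1 (-0.062 to 0.17), Plin5 to Plin1 (-0.21 to 0.063) and Fitm2 to Plin1 (-0.14 to 0.010). With the replicate number as a block, 0 members (edgeR; 4 at an unadjusted p under 0.05), 2 droplet genes and 141 of all genes passed, and the log2 fold changes of Bscl2, Fitm2 and Plin3 were -0.81, -0.48 and 0.22. The numbers 1, 2 and 4 are in both groups. Same-numbered libraries did not deviate together (r = 0.01, -0.07 and -0.13 across 14257 genes), and 0 of these 6 libraries correlated best with its own number. No pairing was seen in this way, but such correlations cannot show that the libraries were unpaired. The cause of the changes between settings was not tested. Depth limits Fitm1 most, at 0 or 1 count in each WT library. In the ratio tests 4 against 3 libraries cannot pass. With 4 against 4, a ratio can pass only if most of the ratios tested together reach the smallest p.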
